A study of Mus musculus with 9 samples.

Results

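Retinoic acid is made, bound, degraded and sensed by a small set of genes, and 10 of them were followed here: Cyp26a1, Cyp26b1, Rara, Rarb, Rarg, Rxra, Crabp1, Crabp2, Aldh1a2 and Aox3. They were chosen by symbol, with earlier results of these data known, and matched to Ensembl gene IDs. The share of them that passes, set beside the share over all genes, is therefore a description and not a test of the set. All 10 were found among the 37990 genes counted, and all 10 were among the 14465 genes that passed the filter on low counts. The RNA came from E14, a mouse embryonic stem cell line grown on gelatin in medium with 10% serum and 1000 U/ml leukaemia inhibitory factor, which holds it undifferentiated, and total RNA was sequenced. The Fam60a knockdown carried a stable pLKO.1 lentiviral short hairpin RNA against Fam60a, a subunit of the SIN3 histone deacetylase corepressor complex. The Sin3a knockdown carried a hairpin in the same vector against Sin3a, the scaffold of that complex. The control cells, titled T2SC, were taken as those with the scrambled hairpin that targets no mouse gene. All cells went through lentiviral transduction, selection in 2 ug/ml puromycin and several passages, so the controls share those treatments, and no untransduced cells were analysed here. Each group had 3 libraries, which the labels call biological replicates; the p-values measure the spread between these libraries.

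Retinoic acid is formed from retinol in a pair of oxidations, the first by retinol dehydrogenases and the second by retinaldehyde dehydrogenases. In the cell it is carried by CRABP proteins and broken down by CYP26 enzymes, and it acts through RAR receptors that bind DNA as partners of RXR receptors. It is a widely used signal for differentiation of mouse embryonic stem cells, in which it induces Cyp26a1 and Rarb through response elements in their promoters.

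The promoter sequences of 4 of the genes are shown. Cyp26a1 and Rarb are the classic direct targets of the receptors, while Cyp26b1 and Crabp1 are among the genes that passed the test in these cells. Aldh1a2 and Aox3 also passed and had windows, which are not printed, and no window was held for Crabp2, which passed too. Each run holds the 100 bases before a RefSeq start on GRCm38.p6, 5′ to 3′ on the gene's strand, and capitals mark a match to a direct repeat with a spacer of 5 bases. The windows were Cyp26a1 chr19:37697708-37697807 on the plus strand, Rarb chr14:16575477-16575576 on the minus strand, Cyp26b1 chr6:84593811-84593910 on the minus strand and Crabp1 chr9:54764648-54764747 on the plus strand.
Cyp26a1: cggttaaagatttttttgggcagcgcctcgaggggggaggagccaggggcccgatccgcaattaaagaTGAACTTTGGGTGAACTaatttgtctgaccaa
Rarb: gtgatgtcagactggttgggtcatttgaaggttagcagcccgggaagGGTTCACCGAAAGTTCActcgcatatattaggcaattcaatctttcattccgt
Cyp26b1: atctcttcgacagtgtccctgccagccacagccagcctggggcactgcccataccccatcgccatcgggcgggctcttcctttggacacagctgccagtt
Crabp1: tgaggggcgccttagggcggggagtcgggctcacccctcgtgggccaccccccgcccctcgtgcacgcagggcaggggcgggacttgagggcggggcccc
The repeat searched is a receptor hexamer followed by a second hexamer in the same orientation after the spacer, on both strands. Each hexamer was allowed to read AGGTCA, which is the consensus. It was also allowed to read AGTTCA. A further form allowed was GGGTCA. The last form allowed was GGTTCA. The match lay 32 to 16 bases before the start of Cyp26a1, on the strand opposite to the gene, and 53 to 37 bases before the start of Rarb, on the gene's own strand. RefSeq windows of 300 bases were held for 9 of the 10 genes, 14 windows in all, and the repeat was found in those of Cyp26a1 and Rarb alone. Among all 32851 such windows, 32 held it (0.0974%). Repeats with spacers of 1 and 2 bases were in 0.222% and 0.268% of all windows and in 0 of these 14. A match is a match of letters only, and its absence says nothing about binding elsewhere.

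The hairpin targets were lower in their own groups. Fam60a, named Sinhcaf in the annotation, measured 5.73 ± 0.753 CPM (counts per library size after TMM scaling) in Fam60a knockdown cells and 13.5 ± 0.472 CPM in control cells (SD, n = 3 each; adjusted p = 0.028). That call ended in 11 of 17 alternatives (adjusted p of 3.68e-05 to 0.133 over them). Sin3a measured 126 ± 13.4 CPM in Sin3a knockdown cells and 287 ± 21.9 CPM in control cells (SD, n = 3 each; adjusted p = 0.00149). Sin3a was also lower in every Fam60a knockdown library than in every control, at 75.6% of control. That did not pass (adjusted p = 0.0964) but did in 6 of 17 alternatives (0.00466 to 0.371 over them). Fam60a in Sin3a knockdown cells was at 115% of control and overlapped the controls (adjusted p = 0.609). Libraries held 2607872 to 7674887 reads, so that 3 reads of a gene, taken as the floor, were worth 0.385 to 1.22 CPM, for counting error only. Sin3a knockdown replicate 3 was the shallowest and had 90 mitochondrial reads, against 6268 to 7118 in every other library. Of 8 embryonic stem cell markers, including Pou5f1, Sox2 and Nanog, none was at 0, with sums of 1207 to 1388 CPM in Fam60a knockdown cells, 1401 to 1535 CPM in Sin3a knockdown cells and 1404 to 1565 CPM in control cells. Log2 fold changes were below 0 for 8 of 8 markers in Fam60a knockdown cells (median -0.18) and for 5 of 8 in Sin3a knockdown cells, and 0 passed in either. The sums hide shifts of single markers in Sin3a knockdown replicate 3. In Sin3a knockdown cells Pou5f1 measured 131, 152 and 316 CPM and Nanog 152, 161 and 95.9 CPM.

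In Fam60a knockdown cells, Aox3 rose and Crabp1 and Aldh1a2 fell, so that 3 of the 10 genes passed the test, in a comparison in which 2.92% of all tested genes did. Over all tested genes 1.49% rose and 1.44% fell. With the replicate number as a block the count was 5 of 10, where 6.13% of all genes passed, the additions being a rise of Cyp26b1 and a fall of Crabp2. The 3 Fam60a knockdown libraries lay above all 3 controls for Cyp26b1, Rarb and Aox3 and below them for Rara, Crabp1, Crabp2 and Aldh1a2, and 34.4% of all genes had no overlap in this comparison. The count of 3 was 0 without any 1 of the Fam60a knockdown libraries or without control replicate 1 or 2. The 423 calls over all genes fell there too, to between 31 and 146 and to 11 and 46. The count of the 10 genes was 1 without control replicate 3 or Sin3a knockdown replicate 1 or 2, with 222, 263 and 312 calls over all genes. It was 6 without Sin3a knockdown replicate 3, where 16.9% of all genes passed.

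In Sin3a knockdown cells, Cyp26b1 rose and Crabp1 and Crabp2 fell, again 3 of 10, where 10.2% of all tested genes passed, 3.91% rising and 6.28% falling. With the replicate number as a block the count was again 3 of 10, where 15% of all genes passed. The Sin3a knockdown libraries lay above the controls for Cyp26b1 and below them for Rara, Crabp1, Crabp2 and Aldh1a2, and 33.2% of all genes had no overlap. The count was 1 without Fam60a knockdown replicate 1 or without any 1 of the control libraries, 2 without Fam60a knockdown replicate 2 or without Sin3a knockdown replicate 1 or 2, and 4 without Sin3a knockdown replicate 3, where 24.5% of all genes passed. Where the count was 1, calls over all genes fell too, from 1475 to between 521 and 1010. Where it was 2, they fell to between 825 and 1148. Both comparisons use the same 3 control libraries, so their values stand side by side and are not independent. The median log2 fold change of the 10 genes was -0.30 in Fam60a knockdown cells and -0.14 in Sin3a knockdown cells, against -0.02 and -0.01 over all tested genes.

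**Figure D1:**
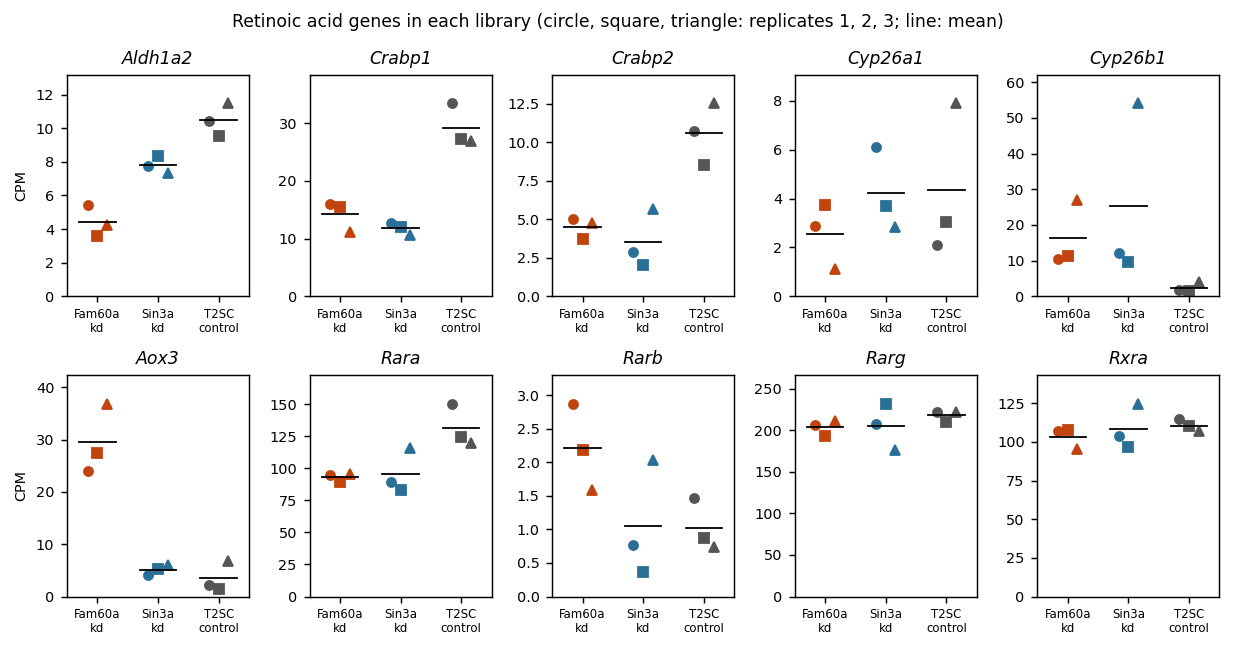
Level of each of the 10 genes in CPM in every library of the Fam60a knockdown, the Sin3a knockdown and the T2SC controls, with 1 point per library and a line at the group mean. Aox3 is high in Fam60a knockdown cells alone, Crabp1 and Crabp2 are low in both knockdowns, and control replicate 3 is the highest control for Cyp26a1, Cyp26b1 and Aox3.

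Between the knockdowns, a contrast that also tests whether their effects differ, 1 of the 10 genes passed, Aox3, where 3.06% of all tested genes did, 2.18% higher and 0.878% lower in the Fam60a knockdown. With the replicate block it was again 1 of 10, where 4.65% of all genes passed. No overlap of the libraries was found for Aox3, higher in Fam60a knockdown cells, and for Aldh1a2, lower in them, in a contrast where 25.5% of all genes had none. The count was 0 without any 1 of the Fam60a knockdown libraries, without Sin3a knockdown replicate 1 or 2 or without control replicate 1, and 2 without Sin3a knockdown replicate 3, where 14.7% of all genes passed. Where the count was 0, calls over all genes fell too, from 443 to between 48 and 249. The median log2 fold change of the 10 genes was -0.02, against 0.01 over all genes.

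**Figure D2:**
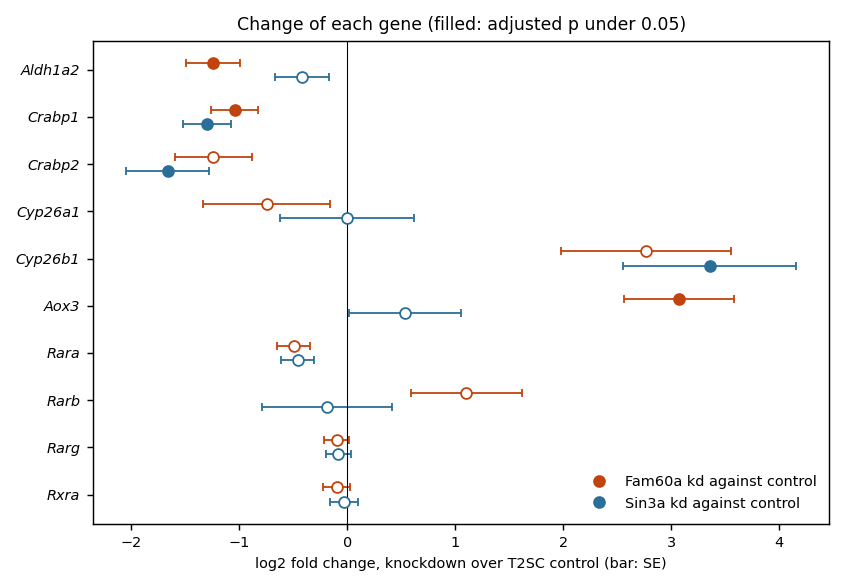
Log2 fold change of each gene, Fam60a or Sin3a knockdown over the T2SC controls, with the SE as a bar; filled points had an adjusted p under 0.05. Aox3 at 3.07 in Fam60a knockdown cells and Cyp26b1 at 3.36 in Sin3a knockdown cells lie farthest to the right.

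Among the enzymes that form retinoic acid, Aldh1a2 was lower and Aox3 higher in Fam60a knockdown cells. Aldh1a2 (ENSMUSG00000013584, GRCm38 chromosome 9, 71215789 to 71296243, plus strand) encodes a retinaldehyde dehydrogenase, the main source of retinoic acid in the early mouse embryo. It measured 5.44, 3.59 and 4.27 CPM in Fam60a knockdown cells, 7.78, 8.36 and 7.31 CPM in Sin3a knockdown cells and 10.4, 9.54 and 11.5 CPM in control cells, from 18 to 77 reads per library. The 3 groups did not overlap, with the Fam60a knockdown lowest, the Sin3a knockdown between and the controls highest. The level in Fam60a knockdown cells was 42.3% of control (log2 fold change -1.24 ± 0.25 SE, adjusted p = 0.0359). In Sin3a knockdown cells it was 74.9% of control and did not pass (-0.42 ± 0.25, adjusted p = 0.327), and the difference between the knockdowns did not pass either (-0.82 ± 0.26, 95% interval -1.40 to -0.25, adjusted p = 0.126). The call in Fam60a knockdown cells ended with no filter on low counts and when any 1 library other than Sin3a knockdown replicate 3 was left out, with adjusted p values of 0.000356 to 0.15 over 17 alternatives.

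Aox3 (ENSMUSG00000064294, chromosome 1, 58113130 to 58200698, plus strand) encodes an aldehyde oxidase, one of a family in mouse that can oxidise retinaldehyde to retinoic acid among many other substrates. It measured 24.0, 27.5 and 36.8 CPM in Fam60a knockdown cells, 4.12, 5.20 and 6.09 CPM in Sin3a knockdown cells and 2.28, 1.45 and 6.70 CPM in control cells. The Fam60a knockdown libraries stood far above both other groups, while the Sin3a knockdown lay inside the range of the controls, of which replicate 3 was the highest. Aox3 was 8.41-fold higher in Fam60a knockdown cells than in control cells (log2 fold change 3.07 ± 0.51, adjusted p = 0.0186) and 5.81-fold higher than in Sin3a knockdown cells (2.54 ± 0.50, adjusted p = 0.0345). In Sin3a knockdown cells against the controls the value was 0.53 ± 0.52 (95% interval -0.64 to 1.71, adjusted p = 0.554). It was 1.47 without control replicate 3 (adjusted p = 0.0658) and 1.34 with replicates 1 and 2 alone, where it passed (adjusted p = 0.0134; 0.0134 to 0.86 over 17 alternatives). Without control replicate 3 the rise in Fam60a knockdown cells was 4.0 on the log2 scale (adjusted p = 0.0133); the call ended without any 1 Fam60a knockdown library or control replicate 1 or 2 (adjusted p of 1.6e-07 to 0.106 over 17 alternatives). The call between the knockdowns ended in a fit of their own 6 libraries, without any 1 Fam60a knockdown library, and without Sin3a knockdown replicate 1 or 2 or control replicate 1 (4.52e-05 to 0.119).

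Both genes of the cytoplasmic carriers were lower in every knockdown library than in every control. Crabp1 (ENSMUSG00000032291, chromosome 9, 54764748 to 54773110, plus strand) encodes a carrier linked to the metabolism of retinoic acid. It measured 16.01, 15.4 and 11.1 CPM in Fam60a knockdown cells, 12.7, 12.1 and 10.6 CPM in Sin3a knockdown cells and 33.4, 27.2 and 27.0 CPM in control cells. All 6 knockdown libraries lay well below the lowest control, and the knockdowns overlapped each other. Crabp1 fell to 48.6% of control in Fam60a knockdown cells (log2 fold change -1.04 ± 0.22, adjusted p = 0.0404) and to 40.6% of control in Sin3a knockdown cells (-1.30 ± 0.22, adjusted p = 0.00933). The difference between the knockdowns was 0.26 ± 0.22, with a 95% interval of -0.24 to 0.76 (adjusted p = 0.567). The fall in Sin3a knockdown cells passed in all 17 alternatives run, with an adjusted p of at most 0.0494. The fall in Fam60a knockdown cells ended with no filter and when any 1 library other than Sin3a knockdown replicate 3 was left out (7.61e-05 to 0.194).

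Crabp2 (ENSMUSG00000004885, chromosome 3, 87948666 to 87953376, plus strand) encodes the carrier that brings retinoic acid to the nuclear receptors. Its levels were 4.98, 3.72 and 4.74 CPM in Fam60a knockdown cells, 2.90, 2.04 and 5.69 CPM in Sin3a knockdown cells and 10.8, 8.53 and 12.5 CPM in control cells, from 11 to 84 reads per library. Every knockdown library was below every control, with Sin3a knockdown replicate 3 the highest of the 6. In Sin3a knockdown cells Crabp2 fell to 31.6% of control (log2 fold change -1.66 ± 0.38, adjusted p = 0.0269). In Fam60a knockdown cells it was at 42.3% of control, which did not pass (-1.24 ± 0.36, adjusted p = 0.11) but did with the replicate block (adjusted p = 0.0438; 0.0124 to 0.338 over 17 alternatives). The call in Sin3a knockdown cells ended in a fit of its own 6 libraries, without Fam60a knockdown replicate 1, Sin3a knockdown replicate 1 or 2, or any 1 control (0.000782 to 0.1). In bulk RNA, fewer cells with a transcript and less of it per cell cannot be told apart.

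Of the enzymes that degrade retinoic acid, Cyp26b1 passed the test in Sin3a knockdown cells and Cyp26a1 in neither comparison with the controls. Cyp26b1 (ENSMUSG00000063415, chromosome 6, 84571414 to 84593908, minus strand) measured 10.6, 11.3 and 27.0 CPM in Fam60a knockdown cells, 12.0, 9.47 and 54.0 CPM in Sin3a knockdown cells and 1.63, 1.45 and 4.02 CPM in control cells. All 6 knockdown libraries were above all controls, and in each group replicate 3 was far above replicates 1 and 2. The level was 10.2-fold higher in Sin3a knockdown cells than in control cells (log2 fold change 3.36 ± 0.80, adjusted p = 0.0301) and 6.81-fold higher in Fam60a knockdown cells, which did not pass without the block (2.77 ± 0.78, adjusted p = 0.104) and did with it (0.012; 0.000311 to 0.351 over 17 alternatives). Compared within replicate numbers, the 3 differences in log2 CPM were 2.48, 2.71 and 2.65 for the Fam60a knockdown and 2.66, 2.47 and 3.64 for the Sin3a knockdown. Without Sin3a knockdown replicate 3 the log2 fold change in Sin3a knockdown cells was 2.18 (adjusted p = 0.021), and without control replicate 3 it was 4.04 (adjusted p = 0.0546). That call also ended in a fit of its own 6 libraries and without Fam60a knockdown replicate 1 or 2 or control replicate 1 or 2 (9.2e-05 to 0.125).

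Markers of primitive endoderm, an early lineage that serum cultures of these cells can hold, had sums that were highest in the same library of each group as Cyp26b1. All 9 had reads in every library, and their sums were 2208, 2190 and 3120 CPM in Fam60a knockdown cells, 2607, 2505 and 4784 CPM in Sin3a knockdown cells and 1022, 1286 and 2375 CPM in control cells. Replicate 3 was again the highest of each group, as it was for Aox3 and Rdh10 and for the trophectoderm and neuroectoderm sums given below. The sum of control replicate 3 exceeded those of the lowest Fam60a knockdown libraries. Single markers did not all follow the sum. In Sin3a knockdown cells Col4a1 measured 625, 645 and 1779 CPM and Lama1 862, 929 and 1766 CPM, most of the sum of replicate 3. Dab2 at 209, 150 and 139 CPM and Pdgfra at 346, 327 and 339 CPM were not highest in replicate 3 there, whereas the other markers were. Log2 fold changes were above 0 for 9 of 9 markers in both knockdowns; by edgeR none passed in Fam60a knockdown cells (4 with the block, 3 at an unadjusted p under 0.05) and 1 rose in Sin3a knockdown cells (8 with the block), a transcription factor gene, Gata6. Gata4, which acts in the same lineage, measured 129, 94.7 and 195 CPM in Fam60a knockdown cells, 149, 109 and 191 CPM in Sin3a knockdown cells and 39.3, 29.6 and 143 CPM in control cells. With replicates 1 and 2 alone, Cyp26b1 was higher by 2.84 in Fam60a knockdown cells and 2.82 in Sin3a knockdown cells on the log2 scale (adjusted p = 0.000311 and 0.000187). The part of these markers in the differences of Cyp26b1, Aox3 and Rdh10 was not tested.

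Markers of other lineages had lower sums. For trophectoderm and neuroectoderm markers, too, replicate 3 had the highest sum of each group, which is the upper end of each range given. For fibroblast markers it did so in Sin3a knockdown cells alone. Trophectoderm markers summed to 98.2 to 132 CPM in Fam60a knockdown cells, 65.9 to 188 CPM in Sin3a knockdown cells and 42.1 to 88.1 CPM in control cells, and 5 of 5 tested had log2 fold changes above 0 in both comparisons. By edgeR 0 of 5 passed in either (4 in the Fam60a and 2 in the Sin3a comparison with the block; 3 and 1 at an unadjusted p under 0.05). Elf5 was at 0 in 4 libraries. Neuroectoderm markers, the lineage that retinoic acid promotes, summed to 66.3 to 75.7 CPM in Fam60a knockdown cells, 43.5 to 137 CPM in Sin3a knockdown cells and 113 to 136 CPM in control cells. Of the 3 tested, Tubb3 fell in both knockdowns and Pax6 in Sin3a knockdown cells. The third, Nes, did not pass and had log2 fold changes of 0.35 in Fam60a and 1.06 in Sin3a knockdown cells, with 112.5 CPM in Sin3a knockdown replicate 3. Pax3 was at 0 in 6 libraries and Neurog2 in 7. Sox1, also on the list, was not found among the genes counted, so the sums leave it out. Fibroblast markers summed to 40.3 to 55.9, 22.1 to 56.5 and 46.4 to 86.2 CPM in Fam60a knockdown cells, the Sin3a knockdown and the controls. Of the 4 tested, 0 passed in Fam60a knockdown cells by edgeR (1 at an unadjusted p under 0.05), and Thy1 fell in Sin3a knockdown cells, joined by Pdgfrb with the block. Thy1 was also higher in the Fam60a than in the Sin3a knockdown, again joined by Pdgfrb with the block, and the defining marker Dcn was at 0 in 8 of 9 libraries. The part of these lineage markers in the results on the 10 genes was not tested.

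Cyp26a1 (ENSMUSG00000024987, chromosome 19, 37697798 to 37701536, plus strand) encodes the degrading enzyme that retinoic acid itself induces, and its promoter is printed above with the repeat in capitals. It measured 2.87, 3.72 and 1.11 CPM in Fam60a knockdown cells, 6.10, 3.71 and 2.84 CPM in Sin3a knockdown cells and 2.12, 3.04 and 7.90 CPM in control cells, from 7 to 53 reads per library. The groups overlapped, and control replicate 3 was the highest of the 9 libraries. Neither comparison passed, with a log2 fold change of -0.75 ± 0.59 in Fam60a knockdown cells (95% interval -2.08 to 0.58, adjusted p = 0.686) and of 0.00 ± 0.62 in Sin3a knockdown cells (-1.40 to 1.39, adjusted p = 0.999). Without control replicate 3 these values were 0.03 and 0.78, so the direction in Fam60a knockdown cells rests on that library. Within replicate numbers the differences of the Fam60a knockdown were 0.39, 0.27 and -2.52.

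**Figure D3:**
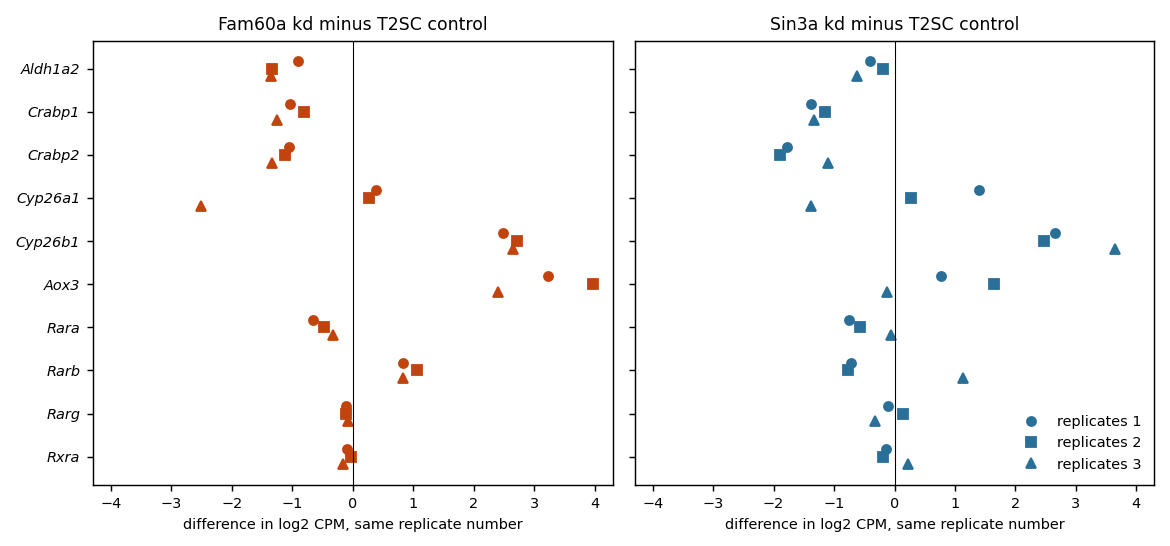
Difference in log2 CPM between the knockdown and the control library of the same replicate number, for each gene, with the Fam60a knockdown on the left and the Sin3a knockdown on the right. The 3 differences of Cyp26b1 in Fam60a knockdown cells lie between 2.48 and 2.71, while those of Cyp26a1 run from -2.52 to 0.39.

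None of the 4 receptor genes passed in any comparison in the report's edgeR fit or by the DESeq2 test. At an unadjusted p under 0.05 in the report's edgeR fit, Rara did in both knockdowns and Rarb between them. Among the alternatives, Rara passed in 4 of 17 in each comparison with the controls and Rarb in 2 of 17 between the knockdowns. Rara (ENSMUSG00000037992, chromosome 11, 98927818 to 98974942, plus strand), which encodes the broadly expressed retinoic acid receptor alpha, measured 94.9, 89.1 and 95.2 CPM in Fam60a knockdown cells, 89.0, 83.0 and 115 CPM in Sin3a knockdown cells and 150.2, 124 and 119 CPM in control cells. All knockdown libraries were below all controls, but Sin3a knockdown replicate 3 came close to the lowest control. The level was 70.9% of control in Fam60a knockdown cells (log2 fold change -0.50 ± 0.15, adjusted p = 0.128) and 72.7% of control in Sin3a knockdown cells (-0.46 ± 0.15, adjusted p = 0.0946). Without Sin3a knockdown replicate 3 the values were -0.48 (adjusted p = 0.00775) and -0.61 (adjusted p = 0.00395), within ranges of 0.00775 to 0.543 and 0.00241 to 0.388 over the alternatives.

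Rarb (ENSMUSG00000017491, chromosome 14, 16430839 to 16819156, minus strand), which encodes a receptor that is itself a target of retinoic acid, had 19, 17 and 10 reads in Fam60a knockdown cells, 5, 2 and 5 in Sin3a knockdown cells and 9, 6 and 5 in control cells. In CPM these were 2.87, 2.18 and 1.58, then 0.762, 0.371 and 2.03, and then 1.47, 0.867 and 0.745, in the same order of groups and libraries. The Fam60a knockdown lay above the controls in all 3 libraries, yet 2.03 CPM in Sin3a knockdown replicate 3 rests on 5 reads and overlapped it. Rarb passed the filter on low counts through the Fam60a knockdown libraries, and without them it was not tested. Its higher level in that group is therefore a description and no support for a rise. Neither comparison with the controls passed, at 1.10 ± 0.52 in Fam60a knockdown cells (95% interval -0.06 to 2.27, adjusted p = 0.352) and -0.19 ± 0.60 in Sin3a knockdown cells (-1.55 to 1.18, adjusted p = 0.872). Between the knockdowns the value was 1.29 ± 0.56 (adjusted p = 0.271), and 1.90 without Sin3a knockdown replicate 3 (adjusted p = 0.0453; 0.0272 to 0.533 over 17 alternatives). The Rarb locus overlaps Top2b on the other strand; the library kit keeps strand, per the labels.

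The libraries of Rarg and Rxra overlapped between all groups. Rarg (ENSMUSG00000001288, chromosome 15, 102234938 to 102257517, minus strand), the receptor most abundant per length here, measured 204 ± 8.98 CPM in Fam60a knockdown cells, 205 ± 27.8 CPM in Sin3a knockdown cells and 218 ± 7.07 CPM in control cells (SD, n = 3 each). Its libraries ran from 194 to 211, 176 to 232 and 209.6 to 222 CPM in those groups, which overlapped. The 95% intervals of its log2 fold change were -0.36 to 0.16 in Fam60a knockdown cells and -0.35 to 0.18 in Sin3a knockdown cells (adjusted p = 0.869 and 0.677). Rxra (ENSMUSG00000015846, chromosome 2, 27676440 to 27762957, plus strand), which encodes the partner with which RAR proteins bind DNA, measured 103 ± 6.91, 109 ± 14.4 and 111 ± 3.94 CPM in Fam60a knockdown cells, the Sin3a knockdown and the controls (SD, n = 3 each). Its intervals were -0.38 to 0.19 in Fam60a knockdown cells and -0.32 to 0.25 in Sin3a knockdown cells (adjusted p = 0.899 and 0.9). Its libraries ran from 95.5 to 108 CPM in Fam60a knockdown cells, 96.9 to 125 CPM in Sin3a knockdown cells and 107 to 115 CPM in control cells.

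Per kilobase of exon, the order of levels differed between the groups. In Fam60a knockdown cells it began with Rarg at 47.8 CPM per kb, Rara at 21.3, Rxra at 18.9 and Crabp1 at 17.7, of which Rxra and Crabp1 overlapped. Aox3 at 4.19 CPM per kb followed, then Crabp2 at 3.39, Cyp26b1 at 3.05, Aldh1a2 at 1.96 and Cyp26a1 at 1.29, each overlapping its neighbour within this run, and Rarb at 0.420 was last. In Sin3a knockdown cells Rarg stood at 48.1 CPM per kb, Rara at 21.9 and Rxra at 19.9, the last 2 overlapping, with Crabp1 at 14.7. Cyp26b1 at 4.70, Aldh1a2 at 3.45, Crabp2 at 2.68 and Cyp26a1 at 2.13 CPM per kb came next, each overlapping its neighbour, and Aox3 at 0.730 and Rarb at 0.200 CPM per kb stood apart below them. In the controls Rarg stood at 51.1 CPM per kb, Crabp1 at 36.4 and Rara at 30.1, the ranges of Crabp1 and Rara overlapping, then Rxra at 20.2, Crabp2 at 8.02, Aldh1a2 at 4.63 and Cyp26a1 at 2.19. Aox3 at 0.494, Cyp26b1 at 0.442 and Rarb at 0.195 CPM per kb closed the control order and overlapped one another. Crabp1 held rank 4 in both knockdowns and rank 2 in control cells, and Aox3 held rank 5 in Fam60a knockdown cells, rank 9 in Sin3a knockdown cells and rank 8 in control cells.

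**Figure D4:**
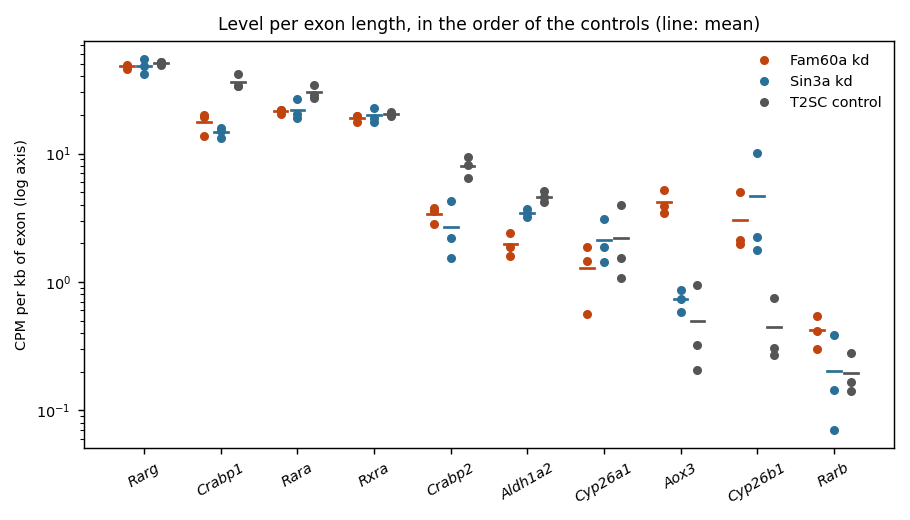
Level of each gene in CPM per kb of exon on a log axis, in the order of the controls, with 1 point per library and a line at each group mean. Rarg is highest in all 3 groups, at 47.8, 48.1 and 51.1 CPM per kb in Fam60a knockdown cells, the Sin3a knockdown and the controls, and Rarb is lowest.

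Other genes of the pathway were read from a list of 46, of which 33 were tested: 14 of 24 in metabolism and transport, 10 of 10 receptor partners and cofactors, and 9 of 12 targets. In Fam60a knockdown cells 1 of the 33 rose and 0 fell, near the 2.92% called over all tested genes (3 rose with the replicate block, where 6.13% of all genes passed), with a median log2 fold change of 0.21, against -0.02 over all tested genes. In Sin3a knockdown cells 4 rose and 0 fell, close to the 10.2% called over all tested genes, with a median of 0.10, against -0.01 over all. Left-out libraries moved these counts: the 1 of the Fam60a comparison was 0 without Fam60a knockdown replicate 1 or 2 or control replicate 1 and 7 without Sin3a knockdown replicate 3 (16.9% of all genes). The 4 of the Sin3a comparison were 10 without Sin3a knockdown replicate 3 (24.5% of all genes), 0 without control replicate 1, 1 without Sin3a knockdown replicate 1 or control replicate 2 or 3, and 2 without any 1 of the others. Calls over all genes fell wherever these counts fell. They went from 423 to between 11 and 92 in the Fam60a comparison and from 1475 to between 521 and 1465 in the Sin3a comparison. In Fam60a knockdown cells 7 of the 33 had an unadjusted p under 0.05, and in Sin3a knockdown cells 10 did, where 15.7% and 25.9% of all tested genes did.

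Aldh1a3, a retinaldehyde dehydrogenase like Aldh1a2, was higher in both knockdowns, while Aldh1a2 was lower in all their libraries. It measured 11.8, 10.4 and 9.65 CPM in Fam60a knockdown cells, 7.47, 4.83 and 6.09 CPM in Sin3a knockdown cells and 1.79, 3.04 and 1.34 CPM in control cells. The 3 groups did not overlap. Aldh1a3 rose 5.10-fold in Fam60a knockdown cells (log2 fold change 2.35 ± 0.35, adjusted p = 0.0122) and 2.96-fold in Sin3a knockdown cells (1.57 ± 0.36, adjusted p = 0.0257). The call in Fam60a knockdown cells ended without Fam60a knockdown replicate 1 or 2 or control replicate 1 (1.1e-07 to 0.0826 over the alternatives), and that in Sin3a knockdown cells in a fit of its own 6 libraries and without Sin3a knockdown replicate 1 or control replicate 1 or 3 (0.00118 to 0.0956).

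Rdh10, the retinol dehydrogenase of the first step, measured 28.1, 29.9 and 49.0 CPM in Fam60a knockdown cells, 43.3, 32.7 and 80.8 CPM in Sin3a knockdown cells and 14.7, 14.9 and 19.4 CPM in control cells. Both knockdowns lay above the controls, with replicate 3 the highest of each group. It rose 3.17-fold in Sin3a knockdown cells (log2 fold change 1.66 ± 0.36, adjusted p = 0.0233). The value in Fam60a knockdown cells, 1.13 ± 0.36, did not pass without the replicate block (adjusted p = 0.144) and did with it (0.0312; 0.00428 to 0.447 over 17 alternatives). The call in Sin3a knockdown cells ended in a fit of its own 6 libraries and without any 1 of the controls (0.000236 to 0.0973).

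Nrip1, a corepressor that retinoic acid receptors recruit when bound to ligand, measured 57.6 ± 5.98 CPM in Fam60a knockdown cells, 55.4 ± 15.7 CPM in Sin3a knockdown cells and 30.04 ± 3.43 CPM in control cells (SD, n = 3 each). It rose in Sin3a knockdown cells (log2 fold change 0.89 ± 0.22, adjusted p = 0.0352), and its value in Fam60a knockdown cells passed with the block (0.94 ± 0.22, adjusted p = 0.0604 without and 0.0325 with it, 0.000959 to 0.208 over 17 alternatives). Among the targets, the homeobox gene Gbx2 rose in Sin3a knockdown cells, at 154 ± 24.2 CPM against 109 ± 6.76 CPM in control cells (0.50 ± 0.13, adjusted p = 0.0444). In Fam60a knockdown cells 0 of 9 targets passed, with log2 fold changes of -2.01 to 1.79, of which 7 were above 0 and 2 below. Stra8 was lower there, at 5.65 ± 3.72 CPM against 22.8 ± 3.52 CPM in control cells. Meis1 was higher, at 36.1 ± 7.92 CPM against 10.4 ± 5.45 CPM (SD, n = 3 each). The call of Nrip1 in Sin3a knockdown cells ended in a fit of its own 6 libraries and when any 1 library other than Sin3a knockdown replicate 3 was left out (0.00076 to 0.106), and that of Gbx2 likewise and with no filter (0.00693 to 0.156).

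Cdx1, a homeobox gene that retinoic acid induces in the mouse embryo, differed between the knockdowns. It measured 19.2, 25.3 and 13.8 CPM in Fam60a knockdown cells, 6.40, 6.13 and 4.06 CPM in Sin3a knockdown cells and 10.6, 9.11 and 11.0 CPM in control cells. The Fam60a knockdown lay above and the Sin3a knockdown below the controls in every library. The contrast of the knockdowns passed (log2 fold change 1.78 ± 0.30, adjusted p = 0.019), whereas neither value against the controls did, at 0.92 ± 0.28 in Fam60a knockdown cells (adjusted p = 0.13) and -0.86 ± 0.30 in Sin3a knockdown cells (adjusted p = 0.108). That call ended in a fit of the 6 knockdown libraries and without Fam60a knockdown replicate 1 or 2 or Sin3a knockdown replicate 1 or 2 (6.66e-06 to 0.109). Cdx1 was the 1 of the 33 genes to pass between the knockdowns.

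**Figure D5:**
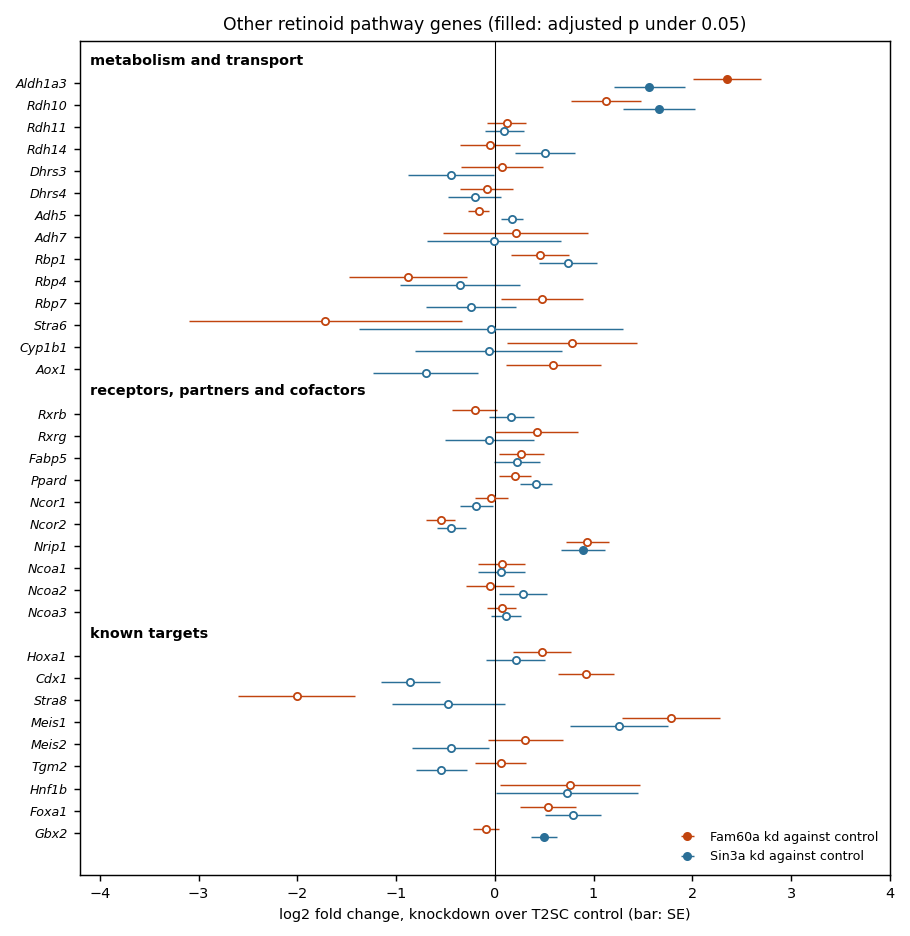
Log2 fold change of the 33 tested pathway genes, Fam60a or Sin3a knockdown over the T2SC controls, with the SE as a bar and genes grouped by role; filled points had an adjusted p under 0.05. Aldh1a3 is filled in both knockdowns, at 2.35 and 1.57, and Rdh10, Nrip1 and Gbx2 in Sin3a knockdown cells.

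For the 5 genes that passed in at least 1 comparison, the closest patterns over the 9 libraries were measured as the root mean square difference in centred log2 CPM among 12547 candidate genes. Mapt and Ndrg2 lay nearest to Crabp1, at 0.137 and 0.145, where the median candidate lay at 0.659. D1Pas1 and Ccnd1 lay nearest to Aldh1a2 at 0.142 and 0.172 (median 0.621), and Asgr2 and Cldn5 nearest to Crabp2 at 0.214 and 0.233 (median 0.836). Adra2b and Foxl2 were the nearest to Cyp26b1, at 0.411 and 0.451 (median 1.57). Aox3 had the loosest matches, Tbx18 and Capn6, at 0.695 and 0.699 (median 1.497).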

How the data were processed

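Each library came as a deposited table of raw counts, whole reads for each Ensembl gene. Libraries were TruSeq stranded single-end reads of 50 bases, per the labels. STAR 2.4.0j, Picard and featureCounts of Subread are named in the submitters' processing notes, and duplicate reads were removed before counting, per the file headers. For the genome build and annotation, the authors' choice is not given in the sources used here. Removing duplicates caps the counts of abundant short transcripts. The libraries titled T2SC were taken as the scrambled controls by elimination.

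Gene IDs were looked up in GENCODE M21 (GRCm38) for symbols, positions and exon lengths, with 32937 of 37990 found, and promoters came from RefSeq. The fit used edgeR 4.0.16 and limma 3.58.1 under R 4.3.3: filterByExpr, TMM scaling, a robust quasi-likelihood F-test on all 9 libraries in 3 groups, and Benjamini-Hochberg adjustment over 14465 genes with calls at an adjusted p under 0.05. Each p is from this fit unless said otherwise. The biological coefficient of variation, as edgeR estimates it, was 0.25. The test was checked on simulated counts with that variation for every gene and no effect of the replicate number. The check therefore does not cover the likeness of same-numbered libraries described below. The alternatives were DESeq2 1.42.0 size factors, the DESeq2 test, no filter, a replicate block, a GC correction, both together, only the 6 libraries compared, each library left out, and an added fit of replicates 1 and 2.

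Libraries of the same replicate number deviated alike: deviations from group means, across genes, correlated at 0.178 to 0.622 in 9 of 9 same-numbered pairs, against -0.448 to 0.113 between numbers. The deviations of a group sum to 0, so positive values within numbers go with lower ones between them. The report's fit held no term for the number, which the replicate block added. The labels do not say why same-numbered libraries were alike. The named genes were the 10 genes, both targets, up to 4 risen and 4 fallen list genes per comparison by adjusted p, and the 2 nearest patterns of each called gene. Rdh10, Nrip1, Stra8 and Meis1 in the Fam60a knockdown, and the marker genes named, were described after their values were seen. The genes and lists were chosen with earlier results of these data known.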

Additional observations from a re-analysis of the deposited data

Results flagged for a closer look

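Among the 10 genes and the 33 tested pathway genes, the effects of the 2 knockdowns differed for 2 by the edgeR contrast between them, which 443 of all tested genes passed. Aox3 was higher in the Fam60a knockdown than in the Sin3a knockdown by 2.54 ± 0.50 on the log2 scale (SE, adjusted p = 0.0345), in 3 of 3 libraries of each. Cdx1 was higher by 1.78 ± 0.30 (SE, adjusted p = 0.019), also without overlap, with the Fam60a knockdown above and the Sin3a knockdown below the controls.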

How the results depend on the processing

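Counts of genes called moved with the processing more than fold changes did, and the cause was not tested. For the Fam60a knockdown, 3 of the 10 genes became 5 with the DESeq2 test, 1 with no filter, 5 with the replicate block, 6 with block and GC correction and 6 with only the 6 libraries compared. The pathway count of 1 became 7, 3 (block), 4 (GC), 5 (block and GC) and 7 (own 6 libraries), the first with DESeq2. The 423 calls over all genes became 1181, 887, 721, 1690 and 1827 in that order. Leaving out 1 library gave 0 to 6, 0 to 7 and 11 to 2495. For the Sin3a knockdown, own 6 libraries gave 1 of 10, 0 in the pathway and 739 over all genes (1475 in the report's fit); block and GC gave 7 in the pathway and 3328 over all; DESeq2 gave 2507. Leaving out 1 library gave 1 to 4, 0 to 10 and 521 to 3606. Between the knockdowns the counts of 1, 1 and 443 became 2, 3 and 1332 with DESeq2 and 0, 0 and 0 with the 6 libraries compared (at an unadjusted p under 0.05, 2624 genes in the report's fit). The pathway count was 2 with GC and with block and GC, and all genes gave 672 (block), 821 (GC) and 1567 (both). Leaving out 1 library gave 0 to 2, 0 to 3 and 48 to 2166. Replicates 1 and 2 alone, chosen after seeing the data, gave 6, 9 and 2450 for Fam60a, 5, 16 and 4417 for Sin3a, and 2, 6 and 2785 between them.

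No called value changed sign. Values that had not passed did, in log2: Cyp26a1 in the Fam60a knockdown (-0.75 in the report's fit) 0.37 (replicates 1 and 2) and, with libraries left out, -1.12 to 0.03 (the highest without control replicate 3); in the Sin3a knockdown 0.01 (DESeq2 size factors; own 6 libraries), 0.02 (no filter), 0.05 (replicate block), 0.04 (GC), 0.09 (both), 0.95 (replicates 1 and 2) and -0.38 to 0.78 with libraries left out (0.00 among them). In the Sin3a knockdown Rarb ran from -0.78 to 0.30, Rxra from -0.14 to 0.09 and Rarg from -0.14 to 0.01 with libraries left out, and Rarg was 0.04 with replicates 1 and 2. Between the knockdowns libraries left out gave -1.16 to 0.60 for Cyp26b1 (-0.59 in the report's fit, 0.60 without Sin3a knockdown replicate 3), -0.16 to 0.12 for Rara, -0.10 to 0.06 for Rarg and -0.17 to 0.05 for Rxra. Rara was 0.01 with GC and 0.02 with block and GC, and Rarg 0.00 with no filter. Replicates 1 and 2 gave 0.02 for Cyp26b1, 0.09 for Rara and 0.10 for Rxra. The replicate block changed the calls of Cyp26b1, Crabp2, Rdh10 and Nrip1 in the Fam60a knockdown and of no other gene of the pathway described. Low counts limit Rarb and Cyp26a1.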
